A study of Mus musculus with 6 samples.

Results

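The hypoxia-inducible factors and a set of their target genes were examined in samples labelled intestinal crypt stem cells. They were compared with and without overexpression of circEZH2_005, a circular RNA made from exons of Ezh2. The 10 genes were taken by name from the deposited table of 28752 genes: the oxygen-regulated factor subunits Hif1a and Epas1, the prolyl hydroxylases Egln1 and Egln3, and the targets Vegfa, Adm, Bnip3, Ndrg1, Ankrd37 and Car9. All 10 were listed once and all 10 passed the filter on low counts, which kept 18348 genes for testing. RNA sequencing compared 3 samples labelled vector (genotype WT) with 3 samples labelled circEZH2_005 overexpression. The cells of both groups were described as Lgr5-positive stem cells of Lgr5-GFP mice, sorted by flow cytometry and cultured as organoids in IntestiCult. The labels give an adenovirus infection of 72 h before the stress. Every sample of both groups was labelled hypoxia/reoxygenation, with 4 h at 2% O2 and 5% CO2, and the labels do not give how long the cells were back in normal oxygen or how the animals were divided among the samples. No samples from normal oxygen were analysed here, so no value below measures a response to oxygen itself, and the circular RNA itself was not measured in this gene table.

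Cells sense oxygen through the Egln enzymes, which use it to hydroxylate prolines in Hif1a and Epas1. The hydroxylated factors are bound by the Vhl protein and degraded, whereas in low oxygen they accumulate, pair with Arnt and bind the core motif ACGTG or GCGTG near their target genes. This control acts mostly on the proteins, so the mRNA of Hif1a or Epas1 does not give the amount of active factor. In the intestine, Hif1a is known for barrier protection and glycolysis, and Epas1 for iron absorption and inflammation.

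Library totals lay between 71506487 and 79919893 counts, and 3 counts corresponded to between 0.0377 and 0.0419 CPM (counts scaled to library size with TMM factors), a floor that covers counting error only. The study describes its replicates in general as biological, but the labels do not say which animals or cultures these samples came from, so p-values measure the spread between these samples, which may be technical. Epithelial markers summed to between 6981 and 10622 CPM. The stem cell list (Lgr5, Olfm4, Ascl2, Smoc2, Axin2) summed to between 1130 and 2481 CPM, beside 10404 to 19072 CPM for 6 enterocyte genes. Most of the stem cell sum was Olfm4, with 1003 to 2314 CPM. Lgr5 had 7.70 to 18.3 CPM, Ascl2 3.27 to 6.72, Axin2 43.7 to 70.8 and Smoc2 56.0 to 113. Of the 5 stem cell genes, Lgr5 (log2 fold change -0.88) and Smoc2 (-0.81) fell with circEZH2_005 (edgeR adjusted p = 0.0434 and 0.0203), while Ascl2 (-0.68), Olfm4 (-0.42) and Axin2 (0.31) did not pass the test. Of the 6 enterocyte genes, Apoa4 rose (0.91, edgeR adjusted p = 0.0279) and the others, from -0.37 for Fabp1 and -0.29 for Sis to 0.98 for Fabp2, did not pass. The 10 leukocyte markers summed to 78.1 to 201 CPM with vector and 274 to 442 CPM with circEZH2_005. Enterocyte and leukocyte markers were thus found in every sample, so the markers do not show Lgr5-positive stem cells alone. None of the leukocyte markers passed the adjustment by edgeR, beside 3.67% of all genes. At an unadjusted p under 0.05, 4 were higher, beside 14.0% of all genes, and DESeq2 called 3 higher, beside 9.65%. Vector sample 2 had the highest leukocyte level of its group and correlated with the circEZH2_005 samples (0.965 to 0.971 across genes) about as well as with the other vector samples (0.970).

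The 10 genes did not move in 1 direction. Ankrd37 rose 2.83-fold, whereas Ndrg1 fell to 0.324 and Epas1 to 0.492 of its vector level, and these 3 genes passed an adjusted p of 0.05 in edgeR's quasi-likelihood test; over all genes tested, 3.67% passed (2.69% higher and 0.986% lower). At an unadjusted p under 0.05, 5 members were higher and 3 lower, beside 23.7% of all genes in either direction. The members were chosen with earlier results of these data known, so the comparison with all genes is a description only. The groups did not overlap in 7 members, with circEZH2_005 above vector in Hif1a, Vegfa, Bnip3 and Ankrd37 and below it in Epas1, Ndrg1 and Car9; over all genes tested, 16.4% lay higher and 14.2% lower without overlap, 30.6% in all. The median log2 fold change of the 10 genes was 0.22 and that of all genes tested 0.00.

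**Figure D1:**
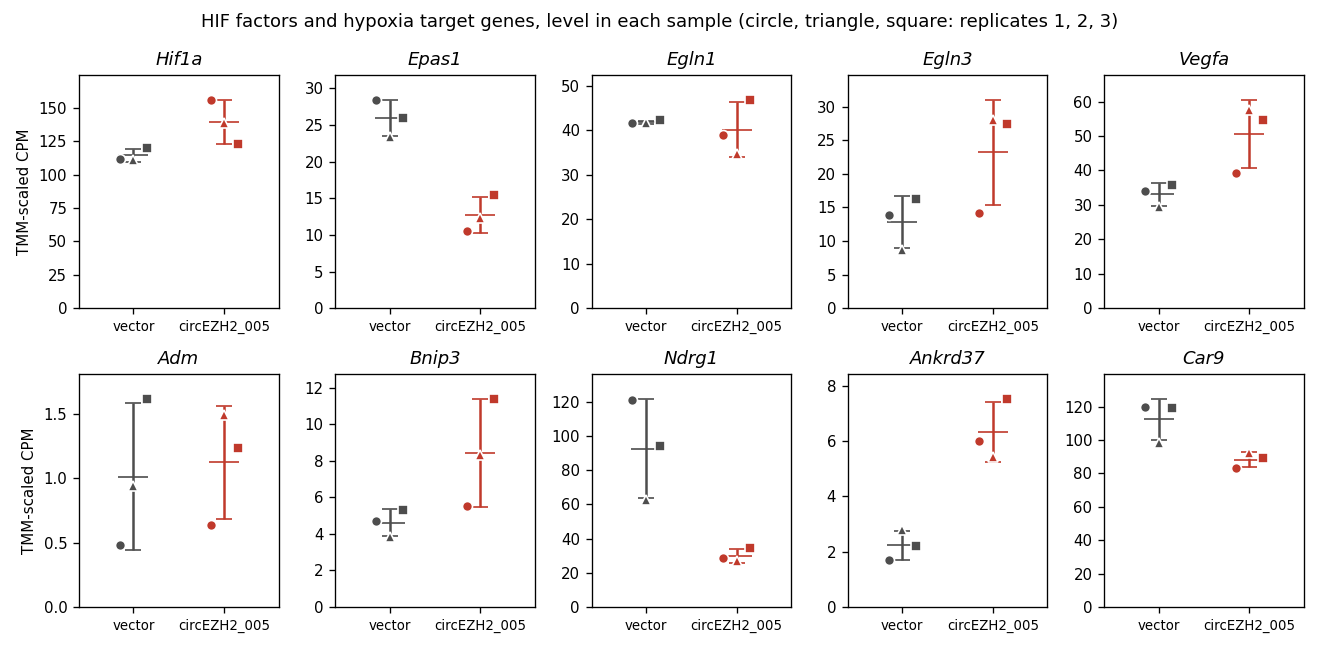
TMM-scaled CPM (linear axes from 0) of the 10 genes in each of the 3 vector (grey) and 3 circEZH2_005 samples (red), with the mean and SD of each group. Epas1, Ndrg1 and Ankrd37 are separated widely between the groups, Adm and Egln1 overlap, and in Egln3 circEZH2_005 sample 1 lies among the vector samples.

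The factor subunits differed in opposite directions. Epas1, which encodes the subunit also called HIF2A, had 28.4, 23.4 and 26.0 CPM with vector and 10.6, 12.3 and 15.4 CPM with circEZH2_005, the values standing, here as below, in the order of replicates 1 to 3. The lowest vector sample thus lay well above the highest circEZH2_005 sample. Epas1 (ENSMUSG00000024140, chromosome 17, 86753700 to 86833410, plus strand, mm10) fell by 1.02 log2 units (standard error, SE, 0.16, n = 3 per group, edgeR adjusted p = 0.0242), and no other gene shares its exonic bases in GENCODE M21. Hif1a (ENSMUSG00000021109, chromosome 12, 73901375 to 73947530, plus strand) had 112, 111 and 120 CPM with vector and 156, 139 and 123 CPM with circEZH2_005. The samples of the groups did not overlap in CPM, but circEZH2_005 sample 3 lay only just above vector sample 3, and in FPKM, at 17.7, it lay within the vector range of 17.4 to 18.8. The log2 fold change of Hif1a was 0.29 (95% interval 0.05 to 0.52, not adjusted for the number of genes, adjusted p = 0.141 by edgeR), and no alternative fit brought it under 0.05. Gm15283 on the other strand, with 2 to 32 counts, shares exonic bases with Hif1a, as does Gm49321 on the same strand, which was not analysed here. The leukocyte marker Ptprc followed the same order of circEZH2_005 samples, with 22.8, 78.6 and 31.9 CPM in the vector group and 185, 140 and 103 CPM in the circEZH2_005 group, and its part in the Hif1a level was not tested.

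In FPKM, which is scaled by transcript length and so allows genes to be compared, Hif1a exceeded Epas1 in every sample. The ratio of their FPKM values was 3.76, 4.49 and 4.37 with vector and 14.0, 10.7 and 7.59 with circEZH2_005. It was 4.21 ± 0.392 (SD, n = 3) with vector and 10.8 ± 3.22 (SD, n = 3) with circEZH2_005, and the groups did not overlap. Epas1 moved more than Hif1a in this ratio: its mean went from 4.28 ± 0.352 to 1.98 ± 0.314 FPKM (SD, n = 3 each), beside 17.9 ± 0.769 and 20.7 ± 3.56 FPKM for Hif1a. In these bulk samples, fewer cells that express a gene and less RNA per cell cannot be told apart. Endothelial cells are known to express Epas1 strongly. Of 6 endothelial markers, Cdh5, Kdr, Emcn and Cldn5 had at most 19 counts in any sample (Emcn was at 0 in 5 samples and Cldn5 in 4), Tek had 38 to 107 counts and Pecam1, also carried by leukocytes, 46 to 415. The list summed to 1.17 to 2.44 CPM with vector and 4.15 to 6.10 CPM with circEZH2_005, mostly through Pecam1, which rose (log2 fold change 1.93, adjusted p = 0.0377 by edgeR); Tek did not pass (0.40, edgeR adjusted p = 0.695). The part of this list in the Epas1 level was not tested. Of the stem cell list, 4 of 5 genes had log2 fold changes below 0, as Epas1 did, and Axin2 was above 0; the part of this list in the Epas1 difference was not tested.

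**Figure D2:**
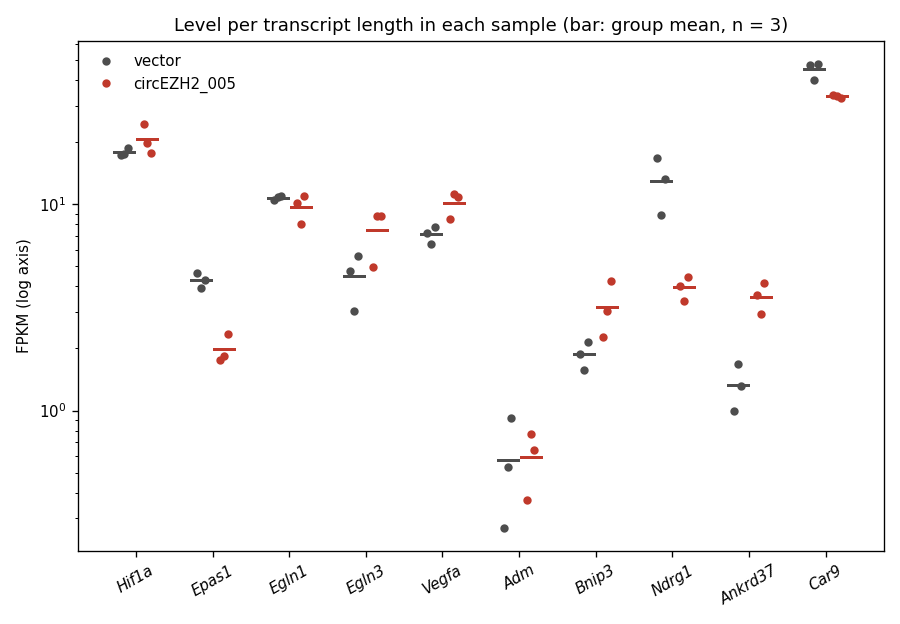
FPKM (log axis) of each gene in each vector (grey) and circEZH2_005 sample (red), with bars at the group means (n = 3). Car9 and Hif1a are the highest genes in both groups and Adm the lowest, while Ndrg1 and Epas1 move down and Ankrd37 up in the order.

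Egln1 and Egln3 encode the enzymes that mark the factor subunits for degradation, and both are themselves induced by hypoxia. Egln1 (chromosome 8, 124908587 to 124949324, minus strand) had 41.6, 41.6 and 42.2 CPM with vector and 38.8, 34.6 and 46.8 CPM with circEZH2_005. The vector samples were nearly equal, and the circEZH2_005 samples lay on both sides of them. The log2 fold change was -0.06 with a 95% interval of -0.33 to 0.21 (adjusted p = 0.801 by edgeR). Egln3 (chromosome 12, 54178981 to 54203860, minus strand) varied more, with 13.8, 8.66 and 16.2 CPM in the vector group and 14.2, 28.0 and 27.4 CPM in the circEZH2_005 group. Samples 2 and 3 with circEZH2_005 lay above every vector sample, while sample 1 was below vector sample 3. Its log2 fold change of 0.85 (95% interval 0.13 to 1.57) did not pass the adjustment by edgeR (adjusted p = 0.149), whereas DESeq2, which called 13.9% of the genes it adjusted, gave 0.0222.

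The target that rose was Ankrd37, a small ankyrin repeat protein whose gene is a strongly hypoxia-responsive HIF target in many cell types. Its counts were 124, 207 and 173 in the vector samples and 478, 404 and 540 in the circEZH2_005 samples, or 1.71, 2.77 and 2.21 CPM against 6.01, 5.43 and 7.54 CPM. The lowest circEZH2_005 sample was well above the highest vector sample, which was vector sample 2. Ankrd37 (ENSMUSG00000050914, chromosome 8, 45996902 to 45999867, minus strand) had a log2 fold change of 1.50 (SE 0.24, n = 3 per group, edgeR adjusted p = 0.0254). The deposited coordinates end before those of GENCODE M21, whose gene model runs to 46005707. In that longer model its exonic bases overlap Ufsp2 and Lrp2bp on the other strand by at most 349 bases, and the sources used here do not say whether reads were counted by strand. Ufsp2 had 3396 to 4141 counts and differed by -0.13 on the log2 scale (edgeR adjusted p = 0.332), and Lrp2bp had 27 to 42 counts and differed by -0.20 (edgeR adjusted p = 0.816). The part of reads from these neighbours in the Ankrd37 counts was not tested.

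The HIF core motif was searched on both strands of RefSeq promoter windows (GRCm38.p6), which run from 250 bases before to 50 bases after a transcription start. Windows were found for 8 of the 10 genes, not for Epas1 and Ndrg1, and each of the 8 genes held at least 1 match of ACGTG or GCGTG; so did 63.6% of the 12109 tested genes with a window. The matches of Ankrd37, whose level rose, are shown beside 1 stretch each of Bnip3, Egln3 and Car9, which did not pass the adjustment by edgeR. Capitals mark the core, written CACGT or CACGC where it lies on the opposite strand, and each sequence reads 5′ to 3′ on the strand of its gene.
Ankrd37, chr8:46000077-46000100, minus strand: cccagcagtACGTGcctagctcgg
Ankrd37, chr8:45999988-46000015, minus strand: cttcactgcgCACGCGTGctgcggccgc
Ankrd37, chr8:45999842-45999866, minus strand: gtgtttgggtACGTGaggccgcagc
Bnip3, chr7:138909602-138909630, minus strand: gccggcgCACGCgccgCACGTGccacacg
Egln3, chr12:54204089-54204113, minus strand: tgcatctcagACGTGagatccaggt
Car9, chr4:43506998-43507022, plus strand: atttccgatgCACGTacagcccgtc
In the Ankrd37 stretches the first core base stands at positions -241, -155 and -6 relative to the RefSeq start, and in the Car9 stretch at -18. The stretches at -6 and -18 lie inside the deposited gene coordinates of Ankrd37 and Car9, which begin further upstream than that start. The Bnip3 stretch holds CACGTG, which is also the E-box bound by other factors and counts as a match on both strands. In the second Ankrd37 stretch, cores of both strands overlap each other. These matches are descriptions of sequence, since no binding of a factor was measured.

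Ndrg1, which encodes a cytosolic protein linked to differentiation and is a classical hypoxia-induced gene, moved the other way. It had 121, 62.7 and 94.3 CPM with vector and 28.5, 26.9 and 34.7 CPM with circEZH2_005. The vector samples differed among themselves by 1.93-fold, with vector sample 2 the lowest, but each was above every circEZH2_005 sample. Ndrg1 (ENSMUSG00000005125, chromosome 15, 66929318 to 66969640, minus strand) fell by 1.63 on the log2 scale (SE 0.23, n = 3 per group, edgeR adjusted p = 0.0207). Of the 2 annotated genes that share exonic bases with it on the other strand, Gm2895 had at most 4 counts in any sample and Gm17035 was not analysed here. The related genes Ndrg2, Ndrg3 and Ndrg4 stood at 0.01, -0.16 and 0.25 on the log2 scale, none of them called by edgeR (adjusted p = 0.984, 0.303 and 0.710).

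The calls of Epas1, Ndrg1 and Ankrd37 were lost when certain samples were left out and kept when others were. Without vector sample 1 the adjusted p-values by edgeR were 0.111, 0.0662 and 0.106, and without vector sample 3 they were 0.121, 0.102 and 0.127; these fits called 0.146% and 0.173% of all genes. Without circEZH2_005 sample 2 they were 0.102, 0.0922 and 0.0794 (0.356% of all genes called), and without circEZH2_005 sample 3 they were 0.0307, 0.0520 and 0.0664 (0.883%). Without vector sample 2, the vector library nearest to the circEZH2_005 samples in these 3 genes, they were 0.0113, 0.00254 and 0.00841, in a fit that called 7.48% of all genes. Without circEZH2_005 sample 1 all 3 calls were kept, at 0.0300, 0.0351 and 0.0377 (3.59% of all genes called). The log2 fold changes stayed between -1.18 and -0.90 for Epas1, between -1.84 and -1.39 for Ndrg1 and between 1.34 and 1.69 for Ankrd37.

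**Figure D3:**
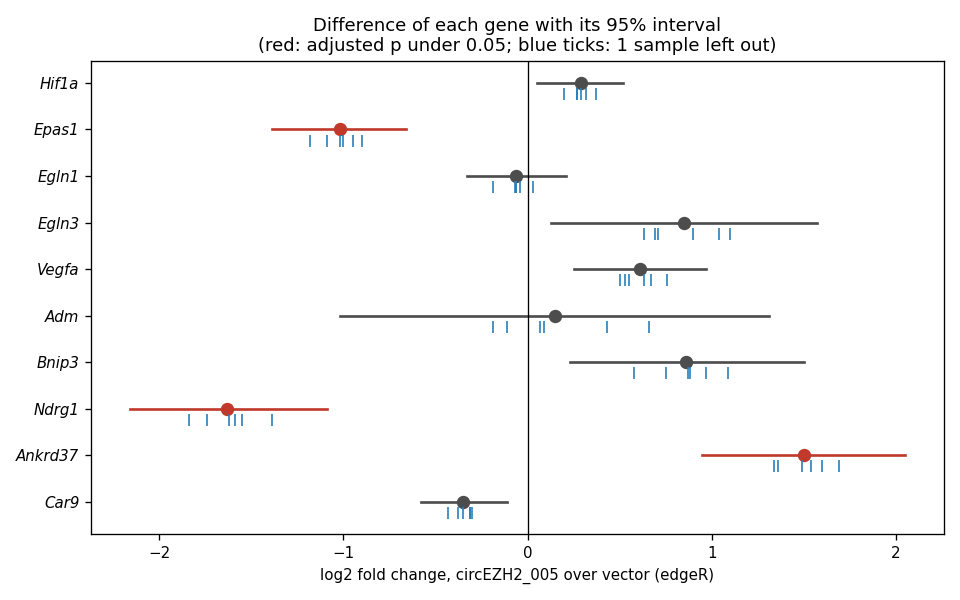
Log2 fold change of circEZH2_005 over vector for each gene (points, edgeR) with its unadjusted 95% interval (lines); red marks an adjusted p under 0.05, and blue ticks give the value when each of the 6 samples is left out. The ticks stay on 1 side of 0 in 8 genes, while those of Adm and Egln1 lie on both sides.

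Car9 encodes a membrane carbonic anhydrase and is a known HIF target. It was the highest of the 10 genes per length in both groups, at 45.0 ± 4.45 FPKM with vector and 33.3 ± 0.501 FPKM with circEZH2_005 (SD, n = 3 each). In CPM it had 120, 98.1 and 119 with vector and 83.4, 92.3 and 89.0 with circEZH2_005. Vector sample 2 lay close above the circEZH2_005 samples, and no sample crossed. The log2 fold change of Car9 (chromosome 4, 43506966 to 43513729, plus strand) was -0.35 (95% interval -0.58 to -0.11) and missed the threshold by edgeR (adjusted p = 0.0908), while DESeq2 gave 0.0378, limma on log2(FPKM + 1), which called 5.54% of its genes, gave 0.0489 and edgeR without vector sample 2 gave 0.0293. Gm12454 on the other strand shares at most 214 exonic bases with it and differed by -0.52 on the log2 scale (edgeR adjusted p = 0.119). It had 362 to 685 counts, beside 6379 to 9319 for Car9. Whether reads were counted by strand is not given, and the part of Gm12454 reads in the Car9 counts was not tested. The listed relatives Car2, Car4 and Car13 ran from -0.33 for Car4 to 1.38 for Car2, and Car12, of the other hypoxia targets, stood at -0.01. None of these passed the adjustment by edgeR, beside 3.67% of all genes. Car2 alone was higher at an unadjusted p under 0.05 and called by DESeq2. Other carbonic anhydrases are not described here.

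Vegfa, the main growth factor for blood vessels, had 34.1, 29.4 and 35.9 CPM with vector and 39.2, 57.7 and 54.8 CPM with circEZH2_005. All circEZH2_005 samples were above all vector samples, sample 1 by the least. The log2 fold change of Vegfa (chromosome 17, 46016993 to 46032369, minus strand) was 0.61 (95% interval 0.25 to 0.97, adjusted p = 0.0685 by edgeR), and it passed in DESeq2 (0.00520) and in edgeR without circEZH2_005 sample 1 (0.0204). Bnip3, which encodes a mitochondrial receptor for mitophagy, showed a like order of samples, with 4.70, 3.84 and 5.30 CPM against 5.52, 8.32 and 11.4 CPM. Its groups did not overlap, but circEZH2_005 sample 1 again lay next to the vector samples. The log2 fold change of Bnip3 (chromosome 7, 138890836 to 138909519, minus strand) was 0.86 (95% interval 0.23 to 1.50, adjusted p = 0.111 by edgeR), and DESeq2 gave 0.0183. A gene on the other strand, Gm45507, shares 504 of the 2265 exonic bases of Bnip3 and was not analysed here. Ptprc, like Vegfa and Bnip3, was above every vector sample in all circEZH2_005 samples. The sample with its highest level, circEZH2_005 sample 1, was the lowest of its group in Vegfa, Bnip3 and Egln3. The part of leukocytes in the levels of these genes was not tested.

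Adm encodes adrenomedullin, a secreted vasodilator peptide that also protects epithelia. It was near the lower end of measurement, with counts of 35, 70 and 127 with vector and 51, 111 and 89 with circEZH2_005. The groups overlapped fully, and in CPM the vector samples alone spanned 3.36-fold. The log2 fold change of Adm (chromosome 7, 110627661 to 110629820, plus strand) was 0.15 with a 95% interval of -1.02 to 1.31 (adjusted p = 0.897 by edgeR), so a difference of 2-fold in either direction lies inside the interval.

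Over the 6 samples, the 10 genes fell into patterns that can be described by Pearson's r of log2 CPM, without a test, since group membership and library are shared by all points. Vegfa and Egln3 had r = 0.97, Vegfa and Bnip3 0.95, and Bnip3 and Egln3 0.94. In each of these 3 genes, circEZH2_005 sample 1 was the lowest of its group and vector sample 2 the lowest of all. Epas1 and Ndrg1 had r = 0.96 and Ndrg1 and Car9 0.94, while Ndrg1 and Ankrd37 had -0.95 and Hif1a and Epas1 -0.92. By level in FPKM, neighbouring genes that overlapped between samples were Ndrg1 and Egln1, Egln3 and Epas1, and Bnip3 and Ankrd37 in the vector group. In the circEZH2_005 group the overlapping neighbours were Vegfa and Egln1, Egln1 and Egln3, Ndrg1 and Ankrd37, Ankrd37 and Bnip3, and Bnip3 and Epas1. Among 11601 other genes with at least 1 FPKM, the patterns most like that of Hif1a were those of Ccnk (r = 0.996), Fam219b and Nek9 (0.991 each), which edgeR did not call (log2 fold changes 0.14 to 0.21). The patterns most like that of Epas1 were those of Srsf6 (r = 0.999), Ddi2 and Svip (0.997 each), with log2 fold changes of -0.30, -0.31 and -0.74.

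The wider pathway was described by 6 lists, in which 82 of 94 genes were tested. Of these, 4 were higher and 2 lower at an adjusted p under 0.05 by edgeR, beside 2.69% and 0.986% of all genes tested, and their median log2 fold change was 0.13. At an unadjusted p under 0.05, 19 were higher and 5 lower, beside 14.0% and 9.72% of all genes. These lists, too, were chosen with earlier results of these data known.

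The partners and regulators of the factors included Arnt, Vhl, Egln2 and the asparaginyl hydroxylase Hif1an. Their 15 log2 fold changes ran from -0.12 (Hif1an) to 0.32 (Cited2, a competitor for the coactivators of the factors), with a median of 0.14. None passed the adjustment in edgeR or DESeq2, which called 3.67% and 13.9% of all genes. At an unadjusted p under 0.05 edgeR had 2 higher, beside 14.0% of all genes. The most abundant per length was Elob, a subunit of the Vhl ubiquitin ligase, with 61.8 ± 2.29 and 60.5 ± 3.68 FPKM (SD, n = 3 each) and a log2 fold change of 0.06.

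Among 34 other hypoxia targets, 30 were tested and 3 passed the adjustment by edgeR, beside 3.67% of all genes. Ccng2, which encodes a cyclin linked to cell cycle arrest, rose from 41.1, 51.5 and 38.8 CPM to 90.6, 164 and 96.9 CPM, or by 1.42 on the log2 scale (SE 0.24, edgeR adjusted p = 0.0296). Nt5e, the surface enzyme CD73 that makes adenosine and protects the gut in ischemia, rose from 7.15, 11.4 and 12.7 CPM to 32.9, 21.0 and 20.1 CPM, or by 1.25 on the log2 scale (SE 0.26, edgeR adjusted p = 0.0487). Leukocytes, which the sort for Lgr5-GFP should remove, also carry CD73, and the part of the leukocyte markers, higher in the same samples, was not tested. Fam162a, a mitochondrial protein of the hypoxic cell death pathway, fell from 36.1, 33.5 and 35.6 CPM to 25.0, 19.6 and 25.3 CPM, by 0.59 on the log2 scale (SE 0.12, edgeR adjusted p = 0.0426). In all 3 genes, which were named because they passed, the groups did not overlap, as in 30.6% of all genes tested. Nt5e lost its call whichever sample was left out (adjusted p 0.0512 to 0.146 by edgeR). Tff3, a goblet cell peptide and the most abundant of these targets, had 627 ± 15.2 and 760 ± 23.0 FPKM (SD, n = 3 each) and just missed the threshold (log2 fold change 0.37, adjusted p = 0.0555 by edgeR). The median of the 30 targets was 0.00, with 15 above and 15 below 0.

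Of 19 genes of glucose uptake and glycolysis, 2 rose by edgeR and 4 were higher by DESeq2, while none was lower by either, nor at an unadjusted p under 0.05. Over all genes, edgeR called 2.69% higher and 0.986% lower, and DESeq2 9.65% higher and 4.26% lower. At an unadjusted p under 0.05, 9.72% of all genes were lower by edgeR. Slc16a3, the lactate exporter MCT4, had 23.2, 21.8 and 21.8 CPM with vector and 35.6, 59.4 and 55.9 CPM with circEZH2_005, and rose by 1.18 on the log2 scale (SE 0.18, edgeR adjusted p = 0.0244). Pfkfb4, an enzyme that sets the level of a glycolysis activator, had 59.3, 52.6 and 59.2 CPM with vector and 77.1, 103 and 87.2 CPM with circEZH2_005, and rose by 0.64 on the log2 scale (SE 0.12, edgeR adjusted p = 0.0362). In both genes, also named because they passed, every circEZH2_005 sample was above every vector sample, as in 16.4% of all genes tested. The lowest circEZH2_005 sample in both was sample 1. Ldha, the most abundant of the list, had 540 ± 17.4 and 499 ± 29.7 FPKM (SD, n = 3 each) and a log2 fold change of -0.02 (95% interval -0.27 to 0.23). The median of the list was 0.20.

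In the 5 iron genes, which include known Epas1 targets of the gut, edgeR called 1 lower, beside 0.986% of all genes. DESeq2 called 1 higher and 2 lower, beside 9.65% and 4.26% of all genes. Tfrc, the transferrin receptor, fell from 665, 440 and 748 CPM to 249, 227 and 252 CPM, by 1.35 on the log2 scale (SE 0.19, edgeR adjusted p = 0.0203), with vector sample 2 the lowest of its group and still above all circEZH2_005 samples. The iron importer Slc11a2 had a log2 fold change of -0.51, the ferric reductase Cybrd1 0.95, the iron exporter Slc40a1 0.52 and the ferroxidase Heph 0.16, and none of these passed (adjusted p = 0.0651, 0.194, 0.126 and 0.674 by edgeR). Of 13 ligands and receptors of Vegf and adrenomedullin signalling, 7 were tested and none passed by edgeR, beside 3.67% of all genes. Only Nrp2 was higher at an unadjusted p under 0.05 (log2 fold change 1.32, adjusted p = 0.0516 by edgeR), beside 14.0% of all genes. DESeq2 called Nrp2 higher, beside 9.65% of all genes. The receptors Kdr and Flt1 had at most 19 and 8 counts in any sample, and the most abundant of the list, Vegfb, had 2.77 ± 0.229 and 2.90 ± 0.275 FPKM (SD, n = 3 each).

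Without vector sample 1, vector sample 3 or circEZH2_005 sample 3, none of these 6 genes kept an adjusted p under 0.05 by edgeR, with values from 0.0880 to 0.166 in the fits without a vector sample and from 0.0534 to 0.0821 in the third fit. Without circEZH2_005 sample 2, the call of Ccng2 was kept (0.0450) and the other values lay between 0.0899 and 0.126. Without vector sample 2 or without circEZH2_005 sample 1, all but Nt5e kept their calls, with adjusted p-values from 0.00147 to 0.0486. Over the 6 fits no fold change turned, the log2 value running from -1.54 to -1.19 for Tfrc, from 1.04 to 1.37 for Slc16a3 and from 1.10 to 1.57 for Ccng2.

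**Figure D4:**
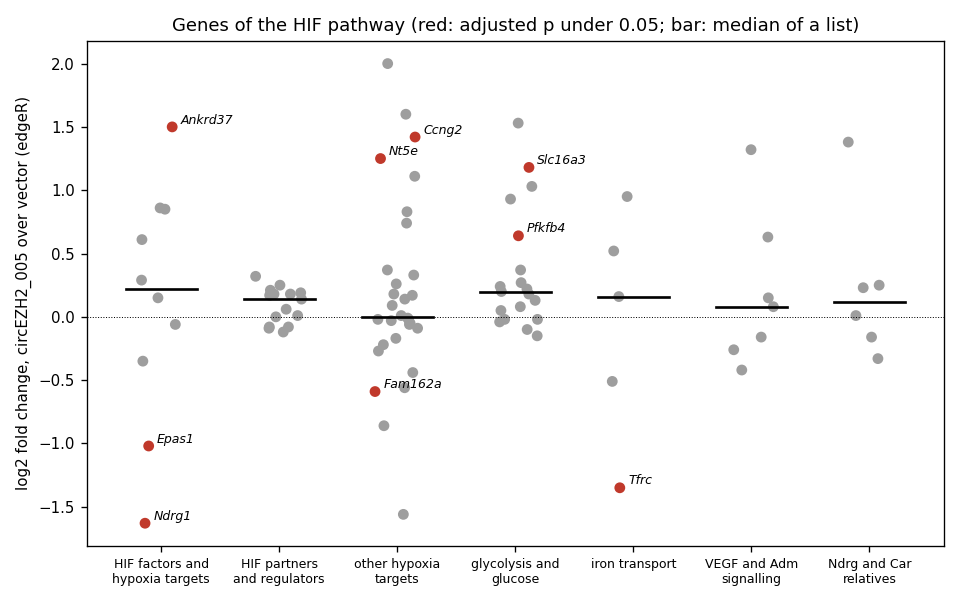
Log2 fold change of circEZH2_005 over vector (edgeR) for each tested gene of the 10 members and of 6 further lists; red points passed an adjusted p of 0.05 and are named, and bars give list medians. The medians lie between 0.00 and 0.22, and called genes stand on both sides of 0.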

How the data were processed

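Polyadenylated RNA of 6 samples was sequenced. The authors deposited, for each gene and sample, the count of reads, without normalization, and an FPKM value. The submitters' processing notes name cutadapt 1.9, HISAT2 2.0.4, StringTie 1.3.4d, DESeq2 and the mouse build mm10; the annotation, the strand setting and any filter are not given in the sources used here. Control columns, named NC with a number, were matched to the vector samples, the only control group in the labels. The members and lists were chosen with earlier results of these data known. Counts were filtered with filterByExpr, scaled with TMM and tested by quasi-likelihood in edgeR 4.0.16 (R 4.3.3), which was checked on simulated data. P-values were adjusted by Benjamini-Hochberg across the whole tested table, and each standard error is the fitted log2 difference over the root of its F statistic. An exact permutation test of 3 samples against 3 cannot go below p = 0.1 and was not used. Where a symbol had 2 entries (Aldoa), that with more counts was taken. All 10 members are named. Of the other lists, called genes and the most abundant gene are named, and for both factors the 3 most correlated genes. Other genes were named after their values were seen. These were the stem cell, enterocyte and endothelial markers, Ptprc, Cited2, Hif1an, Car2, Car12, Car13, the Ndrg relatives, Nrp2, the iron genes and overlapping genes. Alternatives used DESeq2 1.42.0, limma 3.58.1, other scalings, no filter, a replicate block, another threshold and each sample left out.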

Additional observations from a re-analysis of the deposited data

How the results depend on the processing

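Of the 10 genes, 1 was higher and 2 were lower at an adjusted p under 0.05, and of the other pathway genes 4 and 2. DESeq2 gave 4 higher and 3 lower of the 10 genes, and 14 and 4 of the other genes, beside 9.65% and 4.26% of all genes. Without a filter on low counts, edgeR gave 0 and 1 of the 10 genes and 0 and 1 of the others. In that fit 0.588% of all genes were called. A fold change over 2 with an unadjusted p under 0.05 gave 1 higher and 2 lower of the 10 genes and 9 and 2 of the others, beside 6.22% and 1.34% of all genes. Leaving out 1 sample gave between 0 and 2 higher and between 0 and 3 lower of the 10 genes. Of the others it gave between 0 and 8 higher and 0 and 4 lower, beside 0.146% to 7.48% of all genes in either direction. In these fits 1 group has 2 samples. Adm ran from -0.19 (without vector sample 1) to 0.66 (without vector sample 3) and stood at -0.11 without circEZH2_005 sample 2. In the same way Egln1 turned to 0.03 without circEZH2_005 sample 2, Ldha to 0.01 without vector sample 1 and 0.05 without circEZH2_005 sample 1, and Elob to -0.03 by limma on FPKM, whether 1 or 0.1 was added; the cause was not tested. The other 8 members kept their direction in all 13 alternatives.

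With the replicate number as a block, 0 of the 10 genes were higher and 1 was lower by edgeR. Of the other genes 1 was higher and 1 lower, beside 1.31% and 0.196% of all genes (1.51% in all). Ndrg1 kept its call (adjusted p = 0.0251 by edgeR), and Epas1 (0.0533) and Ankrd37 (0.0557) missed the threshold at log2 fold changes of -1.03 and 1.52. Deviations of same-numbered samples from their group means correlated at -0.14, -0.02 and 0.04 across genes, so the numbers were not taken as pairs. Among the members Adm had the fewest counts, 35 to 127 in a sample.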
